A study of Mus musculus with 2 samples.

Results

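Mir21a, the mouse gene of the microRNA miR-21, is 1 of the 1973 microRNA genes counted in small-RNA libraries from embryonic day 12.5 mouse midbrain, and 1 of the 380 with at least 10 counts in both libraries, called quantified here. It was taken as the row whose Ensembl identifier, ENSMUSG00000065455.1, has the symbol Mir21a and which overlaps Vmp1. The 2 libraries form 1 group: replicate 2 came from a pool of 88 embryos and replicate 1 from a pool of 120 embryos, all of strain B6NCrl, healthy and with both sexes mixed, and the RNA was under 30 nucleotides long. There was no treatment and no second tissue. The comparisons are therefore between Mir21a and other microRNA genes, and between the 2 libraries. The gene was chosen by its symbol with its own-strand and opposite-strand counts (as CPM, explained further on) in both libraries known, so its level and its ratio between the libraries are given as a description, with no test.

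MicroRNAs are cut by Drosha and then Dicer from a hairpin in a longer transcript, and one arm is loaded into an Argonaute protein. Bases 2 to 8 of that arm, the seed, pair with target messenger RNAs and lower their output. miR-21 is known from many cell types as a microRNA that rises in tumours, in inflammation, after injury and in reactive astrocytes. Its well studied targets include Pdcd4, Reck and sprouty genes, which act on translation, matrix proteases and growth factor signalling. Its primary transcript starts at a promoter of its own inside Vmp1, the gene of a vacuole membrane protein needed for autophagy, and is known to answer to STAT3 and AP-1.

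The mature sequences below, from RefSeq on GRCm38.p6 and written 5′ to 3′ with the seed in capitals, show why reads of Mir21a can be told from its relatives. The first pair is cut from the Mir21a hairpin, 5p from its 5′ side and 3p from its 3′ side, and the other pair from the related genes Mir21b on chromosome 3 and Mir21c on chromosome 8.
miR-21a-5p: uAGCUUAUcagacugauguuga
miR-21a-3p: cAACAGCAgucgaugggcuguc
miR-21b: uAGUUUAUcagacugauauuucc
miR-21c: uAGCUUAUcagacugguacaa

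Counting from 1 at the 5′ end, miR-21b differs from miR-21a-5p by C4U, G18A, G21U and A22C and is 23 bases long against 22. The C4U change lies in the seed, so miR-21b does not share it. miR-21c is 21 bases long, shares the seed, and differs by A16G, G18A, U19C, U20A and G21A. Of 1738 mature mouse RefSeq sequences searched, miR-21c was the one from another gene with the seed of miR-21a-5p. None from another gene had the seed of miR-21a-3p. MicroRNAs absent from that set were not searched and may share these seeds. The longest run that the Mir21a hairpin shares with any of the other 1004 RefSeq hairpins, on either strand, is 15 bases, with Mir21c. No hairpin shares the 20 bases used here as the mark of a near copy, so a full-length miR-21a-5p read has no second exact match among these hairpins. The rest of the genome was not searched.

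Mir21a was the source of all reads assigned to the 3 miR-21 genes. It had 23875 own-strand reads in replicate 2 and 34698 in replicate 1. Mir21b, in an intron of Egfem1 on the forward strand of chromosome 3 from 29636744 to 29636851, had 0 reads in both libraries. Mir21c, intergenic on the reverse strand of chromosome 8 from 128278148 to 128278225, also had 0 reads in both. A count of 0 allows up to 1.07 CPM (counts per 1000000 own-strand counts assigned to genes) in replicate 2 and 0.648 CPM in replicate 1, at 3 counts. The table counts reads per gene and does not separate the 5p from the 3p arm.

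The predicted hairpins also differed. With RNAfold, the 92 bases of Mir21a had a minimum free energy of -46.2 kcal/mol with 82.6% of bases paired. Mir21b reached -25.3 kcal/mol over 108 bases with 64.8% paired, and Mir21c -23.5 kcal/mol over 78 bases with 61.5% paired. Among the 327 quantified genes with a RefSeq hairpin, the median was -37.1 kcal/mol and 54 had a lower energy than Mir21a. Per base, Mir21a stood at -0.502 kcal/mol against a median of -0.435, and 64 genes were lower. These energies are predictions from sequence and were not measured.

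On mm10, Mir21a lies on the reverse strand of chromosome 11 from 86584067 to 86584158. In GENCODE M21 it falls inside the last exon of the longest protein-coding Vmp1 transcript (86583865 to 86585451), in the part annotated as 3′ UTR (86583865 to 86585310). It begins 1152 bases downstream of the last coding base of Vmp1 and ends 202 bases before the 3′ end of the transcript. Vmp1 is 99972 bases long on the same strand, and the hairpin lies 99678 bases from the 5′ end of the gene. Of the 8 annotated Vmp1 transcripts, this one, with 12 exons, is the one that contains Mir21a. Short fragments of Vmp1 messenger RNA from this stretch and reads of Mir21a cannot be told apart in a count per gene.

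**Figure D1:**
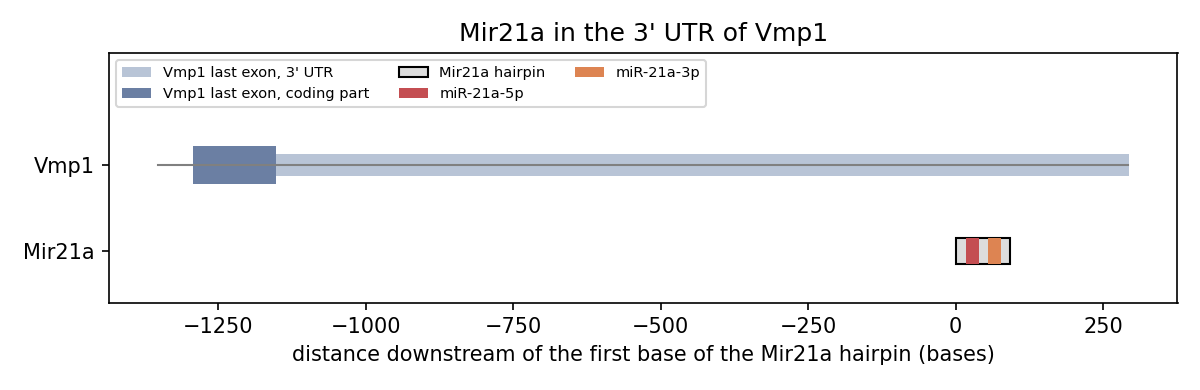
Map, to scale, of the Mir21a hairpin (lower row, with the 5p arm at bases 18 to 39 and the 3p arm at bases 56 to 77) and the last exon of Vmp1 (upper row). The x axis is the distance in bases downstream of the first base of the hairpin. The hairpin sits in the 3′ UTR, 1152 bases past the coding part and 202 bases before the transcript's end.

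Mir21a was among the abundant microRNAs of the E12.5 midbrain. It stood at 8510 CPM in replicate 2, with a 95% Wilson interval of 8403 to 8618 CPM. In replicate 1 it stood at 7495 CPM, with an interval of 7417 to 7574 CPM. That is 1 in 117.5 assigned reads of replicate 2 and 1 in 133.4 of replicate 1. The mean was 8003 ± 718 CPM (SD, n = 2), or 0.800% ± 0.072 of assigned counts. By mean CPM the gene ranked 31, and by library it ranked 30 in replicate 2 and 31 in replicate 1. Its level was 54.2 times the median of the quantified genes (147.7 CPM), and 349 of the 380 stood below it. The intervals cover counting error only, since PCR copies are not independent molecules. Multimapping reads, 33.4% of each library, belong to no gene in the table, so genes with near copies can rank too low beside Mir21a. In a whole tissue, fewer cells with a microRNA and less of it per cell cannot be told apart.

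**Figure D2:**
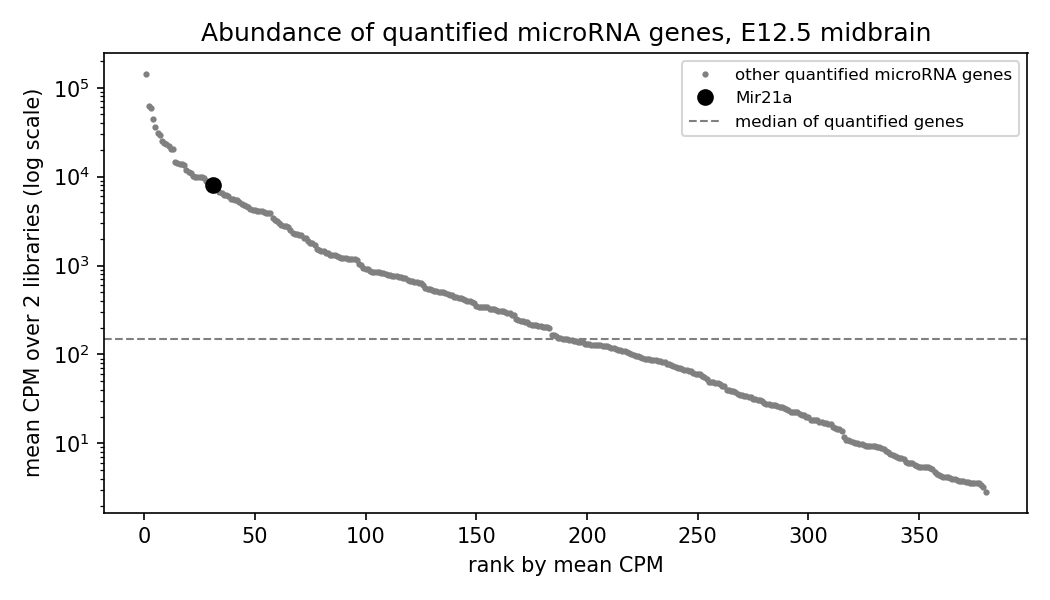
Mean CPM over the 2 libraries (y axis, log scale) against rank (x axis) for the 380 quantified microRNA genes, 1 point per gene. Mir21a, the large point, is at rank 31 with 8003 CPM, far above the dashed median of 147.7 CPM.

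Between the libraries, Mir21a was 1.14-fold higher in replicate 2 than in replicate 1, a log2 ratio of 0.18 ± 0.01 (counting SE). That error covers counting noise and not the spread between pools of embryos. The share of quantified genes past 1.5-fold was 10.3% higher in replicate 2 and 6.58% lower, 16.8% in either direction, and Mir21a lay inside that fold. Its absolute log2 ratio was close to the usual one: 151 quantified genes had a smaller and 228 a larger one, and their median was 0.24. Among the 50 genes within 25 ranks of it, 21 had a smaller absolute ratio, their median was 0.21, and 5 passed 1.5-fold. The SD between the pools was 8.97% of the mean.

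**Figure D3:**
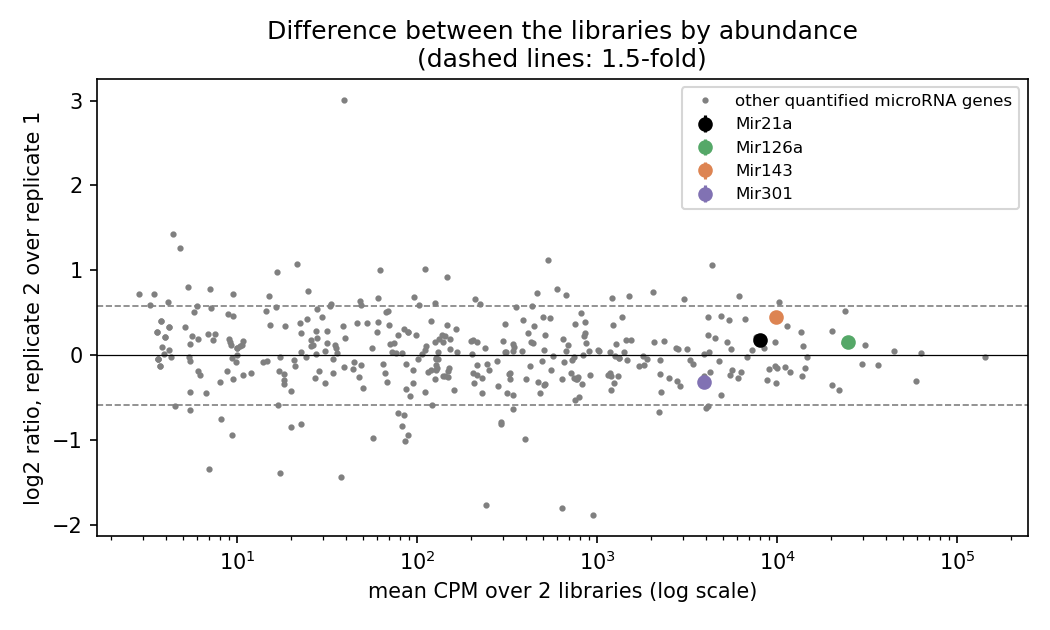
Log2 ratio of replicate 2 over replicate 1 (y axis) against mean CPM (x axis, log scale) for quantified genes, with counting SE bars on the named ones and dashed lines at 1.5-fold. Mir21a at 0.18 and Mir126a at 0.16 lie at nearly the same height, Mir143 is at 0.45 and Mir301 at -0.31.

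Around Mir21a the order of the genes changed between the libraries, but only Mir18 changed sides with it. Just above it by mean CPM were Mir30d, Mir18 and Mir135b, and just below it Mir151, Mir92-1 and Mir296. Mir30d, of a family found in most cell types, had 8745 CPM in replicate 2 and 8243 CPM in replicate 1. Mir18, of the Mir17hg cluster of dividing cells, had 7940 CPM in replicate 2 and 9689 CPM in replicate 1. It was the 1 gene of the table whose order with Mir21a turned round between the libraries.

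Mir135b, whose family is known to act on midbrain patterning through Wnt signalling, had 8535 CPM in replicate 2 and 9520 CPM in replicate 1. Its Wilson interval overlapped that of Mir21a in replicate 2 but not in replicate 1. Mir151, in an intron of Ptk2, had 8164 CPM in replicate 2 and 7006 CPM in replicate 1, below Mir21a in both. Mir92-1, of the Mir17hg cluster, had 7396 CPM in replicate 2 and 7051 CPM in replicate 1. Mir296 was at 6760 CPM in replicate 2 and 6832 CPM in replicate 1. In all, 7 genes, at ranks between 22 and 37, differed from Mir21a in mean CPM by no more than their combined SD.

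**Figure D4:**
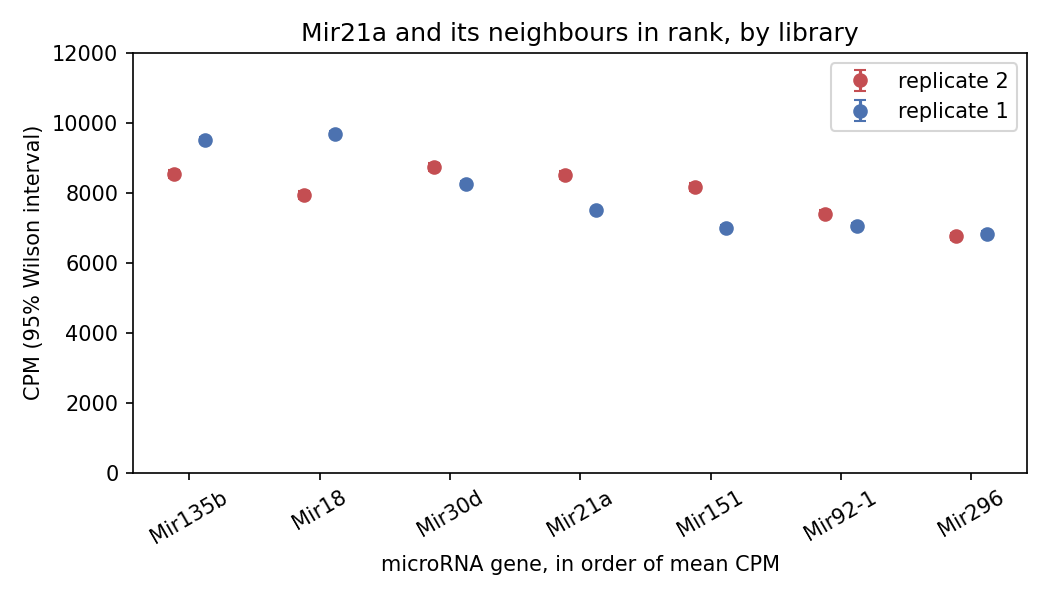
CPM (y axis, from 0) of Mir21a and the 3 genes above and 3 below it in rank, with replicate 2 in red, replicate 1 in blue and 95% Wilson intervals as bars, about as small as the points. Mir21a and Mir151 are higher in replicate 2, while Mir18 and Mir135b are higher in replicate 1.

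The 5 genes nearest to Mir21a over the 2 libraries were Mir151, Mir30d, Mir92-1, Mir135b and Mir296. Likeness was the distance in log2(CPM + 1) over both libraries, among 269 other genes with at least 100 counts in each. The distances were 0.11 for Mir151, 0.14 for Mir30d, 0.22 for Mir92-1, 0.34 for Mir135b and 0.36 for Mir296. With 2 libraries such nearness mostly reflects a like level.

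Among microRNA genes that lie wholly in a 3′ UTR of a protein-coding transcript on the same strand, Mir21a had the highest count. The table holds 30 such genes and 7 were quantified, with a median of 31.6 CPM. Mir21a made up 64.2% of their summed mean CPM. The next was Mir324, in the 3′ UTR of Dvl2, with 3922 CPM in replicate 2 and 4487 CPM in replicate 1, a gene named after its values were seen. By the wider class of any exon of a protein-coding host, Mir21a was at place 3 of 43 quantified genes. It stood below Mir126a in Egfl7 and Mir93, which was also named afterwards. A gene entered this class if it overlapped an exon of any annotated transcript of its host, coding or not. Some genes of the class may therefore lie in an intron of other transcripts of the host. The median of these 43 was 43.8 CPM, against 117.3 CPM for the 144 in protein-coding introns and 321 CPM for the 110 intergenic ones.

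Among counted microRNA genes with a position in GENCODE M21, Mir21a stands alone on its stretch of chromosome 11. The 79 of 1973 identifiers not found in that annotation could not be placed. The nearest counted microRNA gene on one side, Mir5110, lies 823365 bases away (85760616 to 85760702) and had 0 reads in both libraries. On the other side Mir301, in an intron of Ska2 on the opposite strand, lies 528846 bases away (87113004 to 87113089). Mir301 had 3515 CPM in replicate 2 and 4364 CPM in replicate 1, a log2 ratio of -0.31 ± 0.02 (counting SE), the opposite direction to Mir21a.

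Nearly all reads over Mir21a were counted on its own strand. The own-strand counts were identified as the ones that hold nearly all reads, so this is no check of the annotated strand. On the opposite strand of Mir21a lay 1 read in replicate 2 and 5 reads in replicate 1. Replicate 2 thus had 0.0042% of the reads over the gene on that strand, with a 95% Wilson interval of 0.00074 to 0.024%. Replicate 1 had 0.014%, with an interval of 0.0062 to 0.034%. Over all genes pooled, the opposite strand held 2.47% of reads in replicate 2 and 2.40% in replicate 1. That pooled share is not the usual one for a single gene. Among quantified genes the median share was 0, and 338 of them had no opposite-strand reads. Among the 100 most abundant genes, 91 had a lower share than Mir21a and 8 a higher one. Mir21a was therefore not unusually low in opposite-strand reads.

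miR-21 is known from leukocytes, vessel walls, epithelia and mesenchyme more than from neurons, so its level was set beside microRNAs commonly used to mark such cells. All values are summed CPM over a list, and the lists were chosen with earlier results known. The neural list gave 49953 CPM in replicate 2 and 42444 CPM in replicate 1 over 18 genes. It was led by Mir92b of neural progenitors (27886 CPM in replicate 2, 19483 CPM in replicate 1) and Mir135b. In this list Mir9 and Mir124a genes, which mark neural progenitors and neurons, are near copies of each other, so multimapping reads of these copies are missing from their counts. Their mean levels were 281 CPM for Mir9-3, 3.80 CPM for Mir9-2, and 3.56, 14.6 and 5.37 CPM for Mir124a-1, Mir124a-2 and Mir124a-3, all named after their values were seen. Mir9-1 was not found by symbol and was not analysed here.

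Endothelial Mir126a stood above Mir21a, at 26243 CPM in replicate 2 and 23434 CPM in replicate 1. The endothelial list held Mir126a alone, since its other member, Mir126b, was not found by symbol. The level of Mir21a was 0.324 of that of Mir126a in replicate 2 and 0.320 in replicate 1. Their log2 ratios between the libraries differed by 0.02 ± 0.01 (counting SE), and 16 quantified genes, Mir126a included, lay that near to the ratio of Mir21a. The mural and mesenchymal list also stood above Mir21a, with 23591 CPM in replicate 2 and 15707 CPM in replicate 1 over 8 genes, of which Mir145b was at 0. By mean CPM it was led by Mir143 of smooth muscle and pericytes (11351 CPM in replicate 2, 8284 CPM in replicate 1) and Mir140 of cartilage (5626 CPM in replicate 2, 4089 CPM in replicate 1). In replicate 2 Mir214, named after its values were seen, stood above Mir140 at 5888 CPM. The level of Mir21a was 0.361 of this sum in replicate 2 and 0.477 in replicate 1. Multimapping reads of any near copies are missing from this sum too, so it can be too low.

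The leukocyte list lay far below Mir21a. It gave 770 CPM in replicate 2 and 609 CPM in replicate 1 by own-strand counts. Its leading members by these counts were myeloid Mir223 (420 CPM in replicate 2, 283 CPM in replicate 1) and Mir155 of activated immune cells (235 CPM in replicate 2, 265 CPM in replicate 1). Mir142b was at 0 on its own strand, but its opposite strand, the place of Mir142, held 1332 reads in replicate 2 and 1646 in replicate 1. That is 475 CPM in replicate 2 and 356 CPM in replicate 1, above Mir223 in both. With those reads added, the sum was 1244 CPM in replicate 2 and 965 CPM in replicate 1. Mir21a stood at 6.84 and 7.77 times that sum in replicates 2 and 1.

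The erythroid list, led by Mir451a and Mir144, gave 271 CPM in replicate 2 and 413 CPM in replicate 1. The epithelial list, led by Mir203 and Mir205, gave 3550 CPM in replicate 2 and 2764 CPM in replicate 1. Mir21a was 2.40 times the epithelial sum in replicate 2 and 2.71 times it in replicate 1. The part of any of these cell types in the Mir21a level was not tested.

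**Figure D5:**
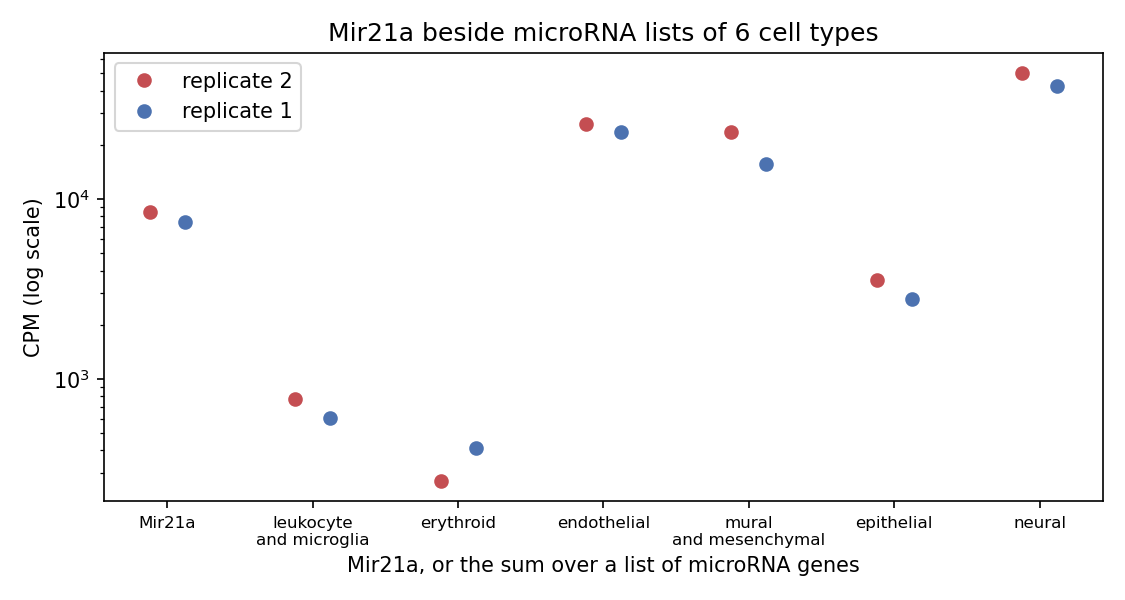
CPM (y axis, log scale) of Mir21a and summed CPM of 6 lists of cell-type microRNAs, with replicate 2 in red and replicate 1 in blue. Mir21a lies below the endothelial, mural and mesenchymal, and neural sums and above the leukocyte, erythroid and epithelial sums in both libraries. The leukocyte sum is without the reads at the place of Mir142, and the endothelial value is Mir126a alone.

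The lists were also compared between the libraries, with no test of a difference between lists. Of quantified members, 1.5-fold or more higher in replicate 2 were 2 of 4 leukocyte genes, 1 of 3 erythroid, 0 of 1 endothelial, 2 of 7 mural and mesenchymal, 4 of 7 epithelial and 3 of 16 neural genes, against 10.3% of all. With DESeq2 size factors the epithelial count was 2 and the neural count 2, against 31 of all 380 genes, and the other counts were as with plain totals. Of the 4 epithelial genes, Mir429, Mir200a and Mir200b, named after their values were seen, lie in the same host gene, Ttll10. The epithelial count is therefore not one of independent genes. Past 1.5-fold lower were 1 erythroid and 1 neural gene, against 6.58% of all. The leukocyte count and median are without the reads at the place of Mir142. The median log2 ratios were 0.66 for leukocyte, 0.20 for erythroid, 0.46 for mural and mesenchymal, 0.60 for epithelial and -0.10 for neural genes, beside 0.04 for all quantified genes and 0.18 for Mir21a itself.

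MicroRNAs often described with miR-21 in tumours and tissue injury were also compared between the libraries, with no test. Of 21 listed genes, 18 were quantified. Of these, 14 lay within 1.5-fold, while 16.8% of all quantified genes lay past it in either direction. A further 3 were 1.5-fold or more higher in replicate 2, against 10.3% of all quantified genes, and 1 was lower, against 6.58%. The 3 higher ones, Mir146, Mir199a-1 and Mir214, named after their values were seen, are also members of the leukocyte or the mural and mesenchymal list and were counted there. Mir199a-1 rests on 18 reads in replicate 2 and 11 in replicate 1, with a counting SE of 0.55. The median log2 ratio of the 18 quantified genes was 0.02, and turned to -0.02 with DESeq2 size factors. Mir17, Mir18, Mir20a, Mir92-1, Mir19a and Mir19b-1, the last pair named after their values were seen, lie in the same host gene, Mir17hg. The counts and the median of this list are therefore not of independent genes. The most abundant were Mir17 (53148 CPM in replicate 2, 65280 CPM in replicate 1) and Mir20a (18979 CPM in replicate 2, 25181 CPM in replicate 1), both of the Mir17hg cluster known to drive cell division. Only 3 of the 21 listed genes, Mir18 being the third, stood above Mir21a in mean CPM.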

How the data were processed

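MicroRNA sequencing was done on 2 pooled midbrain samples. The deposited files hold raw counts, whole numbers of reads per gene, that the authors derived from alignments to mm10 with annotation M4, per the deposited read-me files. Aligner and counter: not given in the sources used here. Of 3 count columns (either, own and opposite strand), the own-strand one was used. It was identified from the values, since it holds nearly all reads. Rows that name no gene were left out, and held 58.2% of replicate 2 and 56.9% of replicate 1. The assigned totals were 2805487 in replicate 2 and 4629302 in replicate 1, and 3 counts equal 1.07 CPM and 0.648 CPM there.

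CPM is own-strand counts per 1000000 assigned, not divided by length, since a read covers a mature microRNA. Symbols and positions came from GENCODE M21 (GRCm38, the assembly of mm10), which held 1894 of 1973 identifiers. Sequences came from RefSeq, which held hairpins for 869 of these genes by symbol. Log2 ratios are replicate 2 over replicate 1. With 1 group there was no test and no count model. edgeR 4.0.16 (TMM) and DESeq2 1.42.0 (size factors) gave alternative scalings, RNAfold 2.7.2 the hairpin energies and scipy 1.17.1 the Wilson intervals. The ratio and its error were tested on simulated data. The simulation held counting noise alone, so it checks the calculation and not the spread between pools or PCR copies.

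Mir21a, the lists and the rules were chosen with earlier results of these data known. Named by rule are Mir21a to Mir21c, genes with its seed, the 3 neighbours in rank on each side, the 5 nearest genes, the neighbours on chromosome 11 and up to 2 leading members of each of 7 lists (leukocyte and microglia, erythroid, endothelial, mural and mesenchymal, epithelial, neural, and described with miR-21 in tumours and injury). Nothing in the labels says whether the pools were prepared at the same time.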

Additional observations from a re-analysis of the deposited data

Results flagged for a closer look

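On the strand opposite to Mir21a, replicate 1 had 5 reads, above the 3 that a count of 0 allows, and replicate 2 had 1. Over both libraries these 6 reads were 0.010% of the reads over the gene. Among the 100 most abundant genes, 8 had a higher such share, 91 had a lower one and the median was 0.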

How the results depend on the processing

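The Mir21a level of 8003 CPM became 7808 CPM with reads of either strand, 9338 CPM with the most abundant gene, Mir99a, left out of the total and 3392 CPM per 1000000 of all reads in the file. These changes follow from the denominators. Leaving out 1 library gave 7495 to 8510 CPM and ranks 30 to 31, and reads of either strand gave rank 32. The log2 ratio of 0.18 was 0.17 with TMM, 0.15 with DESeq2 size factors, 0.14 with all reads as the total, 0.18 with Mir99a left out and 0.18 with either strand, positive in all 5. Relative to the median of quantified genes it was 0.15 under each of the 3 scalings. That sameness was fixed in advance, since a scaling shifts the log2 ratio of every gene by the same amount. The 64 genes past 1.5-fold became 62 with TMM and 58 with DESeq2 size factors, among the same 380 genes. With at least 1 count in both libraries they became 236 of 643, and with at least 100 they became 40 of 270. These thresholds let in more or fewer genes of low count, and the part of such genes in the change was not tested. No paired analysis was possible because there was 1 group. Depth does not limit the Mir21a value, with 23875 reads in the shallower library, but 2 pools give a spread of low precision.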
